A study of Mus musculus with 6 samples.

Results

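The genes described here are 10 targets of the transcription factor p53, many of them linked to growth arrest. They were chosen by symbol, as a list of p53 pathway and growth arrest genes that bear on vector load and fibre stress. The rule used no measured value of theirs, though earlier results of these data were known when the list was made. All 10 were found among the 55401 genes of the deposited counts table, and all 10 passed the filter on low counts that left 17222 genes for testing. RNA-seq was made from the tibialis anterior (TA), a fast hindlimb muscle, of HSA-MCM-Bmal1-/- mice on a C57BL/6 background. In this line a tamoxifen-inducible Cre recombinase, driven by the human skeletal actin promoter, removes the clock gene Bmal1 from skeletal muscle fibres. Both groups carried this knockout. The mice were kept in a 12L:12D light cycle to an age of 12 to 16 weeks, received 2 mg of tamoxifen a day for 5 days, had AAV injected throughout the TA 4 weeks later, and gave muscle 4 weeks after that. The AAV-GFP group (n = 3) received a vector for green fluorescent protein. The AAV-RBM20 group (n = 3) received mouse Rbm20, a splicing factor of titin and other muscle transcripts, with an HA tag and under the CMV promoter, which is not restricted to muscle fibres. Per the study's methods more vector genomes were injected for RBM20 than for GFP, and the delivered protein and the amount of vector cannot be told apart. No uninjected muscle and no muscle with intact Bmal1 was analysed here.

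p53 is held at a low level by the ubiquitin ligase Mdm2 and accumulates after DNA damage and other stress, when it binds pairs of short half-sites in the DNA of its target genes. Its targets stop the cell cycle, start apoptosis, limit oxidative damage and, through Mdm2 itself, close a negative feedback loop. In skeletal muscle Cdkn1a is also known for its part in the exit of myoblasts from the cell cycle, and several p53 targets are known to respond to denervation and disuse.

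Libraries held 41400132 to 54226618 counts. Values are given in CPM, counts scaled to a common library size after TMM normalisation, and differences as the log2 fold change of AAV-RBM20 over AAV-GFP with its standard error from the edgeR quasi-likelihood test. Rbm20 was at 166 ± 3.20 CPM in AAV-GFP and 484 ± 71.0 CPM in AAV-RBM20 (SD, n = 3 each), endogenous and delivered transcripts counted together. Its ranges did not overlap, and its log2 fold change of 1.54 ± 0.15 had an edgeR adjusted p of 0.121, or 0.0107 once the replicate number was entered as a block. The targeted gene Bmal1 (Arntl) was at 35.0 ± 3.63 and 26.3 ± 1.63 CPM, and with no muscle of intact genotype in the comparison this does not check the knockout. The libraries numbered 3 stood apart in both groups. Titin (Ttn) took 4.48% of counts in AAV-GFP replicate 3 and 9.05% in AAV-RBM20 replicate 3, against 16.9% to 17.8% in the other 4 libraries, and mitochondrial genes took 12.5% and 11.4% against 6.41% to 7.66%. Results that turn on these libraries are therefore given with and without them.

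Half-sites for p53 stood in the promoter windows of most members that could be matched. RefSeq windows on GRCm38.p6, running from 250 bases before to 50 bases after a transcription start, were found for 8 of the 10 members, all but Trp53inp1 and Zmat3, as 10 windows in all. An exact match to the p53 half-site consensus, searched on both strands, lay in 6 of the 10 windows, against 8.36% of all 32851 windows. These windows belonged to Cdkn1a, Gadd45a, Mdm2, Ccng1, Bax and Sesn1. The symbols were listed as p53 targets, so a share above that of all windows follows in part from the choice and is given as a description. The stretches around the matches are shown to place the half-sites against each start. They read 5′ to 3′ along the gene, with the exact half-sites in capitals:
Cdkn1a, chr17:29090896-29090947 (plus strand): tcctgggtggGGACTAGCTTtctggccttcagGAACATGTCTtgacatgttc
Gadd45a, chr6:67037428-67037457 (minus strand): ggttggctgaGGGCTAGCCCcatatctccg
Mdm2, chr10:117710925-117710954 (minus strand): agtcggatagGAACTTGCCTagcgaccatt
Ccng1, chr11:40755452-40755481 (minus strand): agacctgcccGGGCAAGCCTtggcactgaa
Bax, chr7:45467080-45467109 (minus strand): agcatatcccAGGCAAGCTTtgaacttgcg
Sesn1, chr10:41887256-41887285 (plus strand): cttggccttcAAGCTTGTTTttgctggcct
The upstream Cdkn1a window held 2 half-sites, which began 73 and 51 bases before its start and were 12 bases apart. A further Cdkn1a window, at an internal start (chr17:29093519-29093818), held no exact half-site. A pair of exact half-sites with a spacer of 0 to 13 bases was present in 24 windows in all, 0.0731% of them. Among the members it was in the upstream window of Cdkn1a alone. A whole site of 20 bases with at most 1 mismatch was found in Cdkn1a, where it began with the half-site nearer the start, and in Ccng1, where it began 195 bases before the start, against 0.0670% of all windows. The half-sites of Mdm2 and Ccng1 began 186 and 185 bases before the start, outside any annotated gene. That of Gadd45a, 40 bases before the RefSeq start, overlapped an annotated Gadd45a exon, that of Sesn1, 173 bases before an internal start, lay in a Sesn1 intron, and that of Bax, 201 bases before the start, lay in the overlapping gene Gm45808. The windows of Phlda3 and Eda2r held no exact half-site. The letters CACGTG, the E-box that BMAL1 with its partner CLOCK is known to bind, were present in the windows of Bax and Eda2r, against 7.15% of all windows. Such matches describe letters in these windows and not binding.

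No member passed the test between AAV-RBM20 and AAV-GFP. The edgeR test with Benjamini-Hochberg adjustment over all genes called 0 of the 10 members, but it called 0.0% of all genes tested. At an unadjusted p under 0.05 it called 0 of the 10 members, against 7.9% of all genes. The CPM ranges of the 3 AAV-GFP and 3 AAV-RBM20 libraries overlapped for every member, against non-overlap in 16.8% of all genes. Of the members, 3 had a positive and 7 a negative log2 fold change, with a median of -0.07 beside 0.01 over all genes tested, and the median of the absolute values was 0.14 beside 0.21. Exact two-sided permutation tests of log2 CPM gave the members p from 0.2 to 1, where 3 libraries against 3 cannot go below 0.1. The labels do not say that the libraries of a group came from separate animals, so p-values measure the spread between these libraries only.

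**Figure D1:**
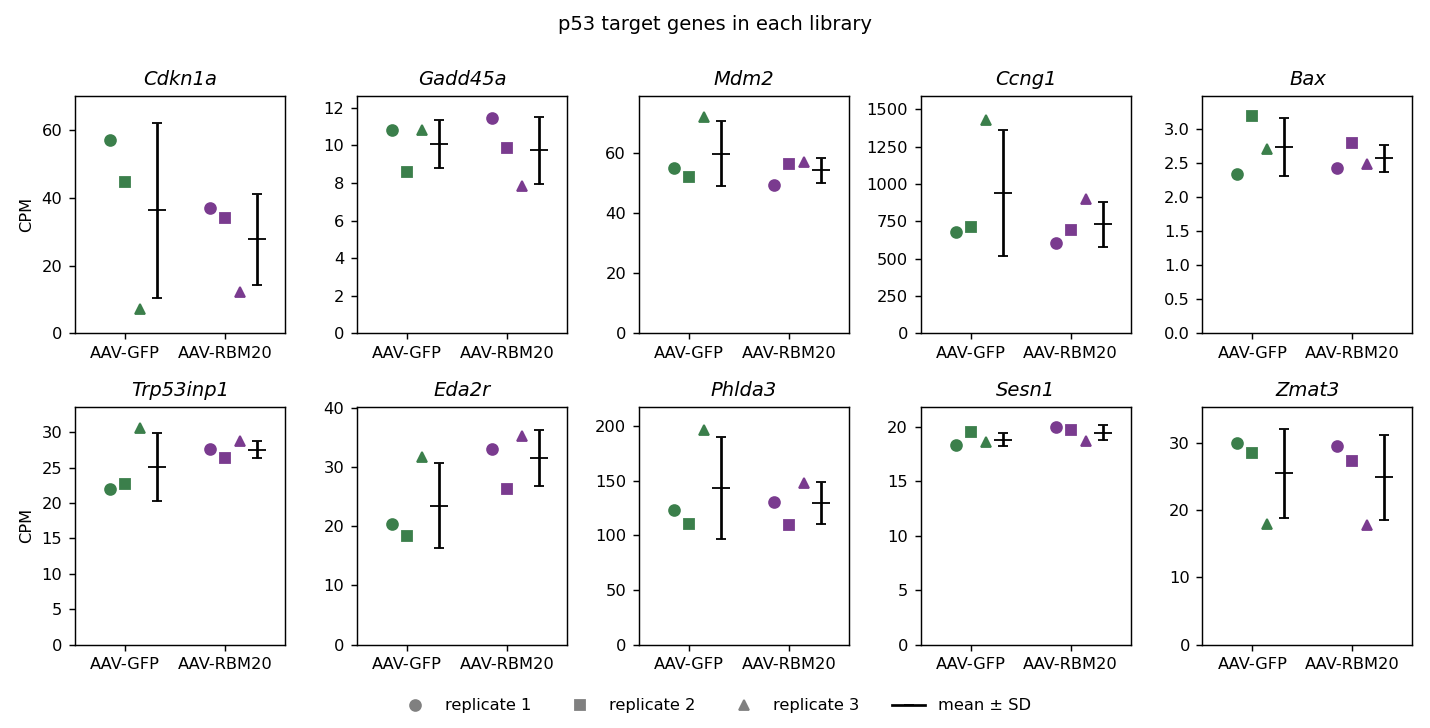
CPM (y axis, linear from 0, a scale of its own for each gene) of the 10 p53 targets in the 3 AAV-GFP and 3 AAV-RBM20 libraries, with the marker shape giving the replicate number and the black bar the mean ± SD. The ranges of both groups overlap in every panel. In both groups the triangles (replicate 3) lie lowest for Cdkn1a and Zmat3 and highest for Ccng1, Phlda3, Eda2r, Mdm2 and Trp53inp1.

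The members differed far more from each other than between the vectors. Per kilobase of merged exons, the level over all 6 libraries was 238 ± 87.3 CPM per kb (SD) for Ccng1 and 87.5 ± 21.0 CPM per kb for Phlda3, which stood apart from each other and from the rest. Mdm2 followed at 11.2 ± 1.56, Cdkn1a at 9.03 ± 5.37, Gadd45a at 5.61 ± 0.80, Sesn1 at 4.80 ± 0.17, Eda2r at 4.67 ± 1.19 and Trp53inp1 at 4.06 ± 0.52 CPM per kb, and the SD ranges of each neighbouring pair in this run overlapped. Zmat3 at 2.20 ± 0.50 and Bax at 1.68 ± 0.20 CPM per kb were lowest, and their SD ranges overlapped each other but not that of Trp53inp1. Summed over the 10 members, the level was 1018, 1016 and 1816 CPM in AAV-GFP and 943, 1007 and 1224 CPM in AAV-RBM20, most of it from Ccng1.

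Cdkn1a (ENSMUSG00000023067, chr17:29090976-29100727, GRCm38) encodes p21, the inhibitor of cyclin-dependent kinases through which p53 arrests the cell cycle. Its level was 57.1, 44.7 and 7.22 CPM in AAV-GFP replicates 1 to 3 and 36.9, 34.2 and 12.4 CPM in AAV-RBM20 replicates 1 to 3. The library numbered 3 was the lowest of its group in both cases, and the highest of the 6 libraries was 7.91 times the lowest, the widest spread of any member. The log2 fold change was -0.38 ± 0.68 (edgeR adjusted p = 0.877), with a wide 95% interval from -1.96 to 1.19. The ratio of AAV-RBM20 to AAV-GFP was 0.646 and 0.766 for the libraries numbered 1 and 2 and 1.71 for those numbered 3. With both libraries numbered 3 left out, the log2 fold change was -0.51 ± 0.12 (edgeR adjusted p = 0.0637). Exons of Cdkn1a share 273 bases with the opposite-strand gene AC167363.2. The library kit keeps strand, but the strand setting of the counting is not given in the sources used here.

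Gadd45a (ENSMUSG00000036390, chr6:67035096-67037457) encodes a growth arrest protein induced by DNA damage and, in muscle, by denervation. It was at 10.8, 8.58 and 10.8 CPM in AAV-GFP and 11.5, 9.88 and 7.87 CPM in AAV-RBM20, with the highest and the lowest library in the same group. It had a log2 fold change of -0.05 ± 0.18 (edgeR adjusted p = 0.947), with a 95% interval from -0.47 to 0.37. The sign turned without the libraries numbered 3 (0.15 ± 0.14). Gadd45a shares 337 exon bases with the opposite-strand E230016M11Rik.

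Ccng1 (ENSMUSG00000020326, chr11:40748552-40755311) encodes cyclin G1, a p53 target that acts on Mdm2 through a protein phosphatase, and was the most abundant member. It was measured at 679, 709 and 1428 CPM in AAV-GFP and at 603, 694 and 896 CPM in AAV-RBM20. Here the library numbered 3 was the highest of its group in both cases, at 2.06 and 1.38 times the mean of the other 2. The log2 fold change was -0.36 ± 0.31 (edgeR adjusted p = 0.740), lower in AAV-RBM20 in 3 of 3 pairs of the same number, and -0.09 ± 0.08 without the libraries numbered 3. Most of the difference in means thus rested on AAV-GFP replicate 3, without which the log2 fold change was 0.07.

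Mdm2 (ENSMUSG00000020184, chr10:117688875-117710758), the ligase that marks p53 for degradation and is itself induced by it, was at 55.0, 51.9 and 71.9 CPM in AAV-GFP and 49.2, 56.2 and 56.9 CPM in AAV-RBM20. AAV-GFP replicate 3 was the highest, and the rest lay close together in both groups. Its log2 fold change was -0.14 ± 0.16 (edgeR adjusted p = 0.799), and -0.01 ± 0.08 without the libraries numbered 3.

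Among the members with a role in apoptosis, Eda2r (ENSMUSG00000034457, chrX:97333840-97377216) came closest to a difference. It encodes the receptor for ectodysplasin A2, a member of the TNF receptor family. Its level was 20.4, 18.3 and 31.7 CPM in AAV-GFP and 33.0, 26.3 and 35.3 CPM in AAV-RBM20. It was higher in AAV-RBM20 in 3 of 3 pairs of the same number, by 1.62, 1.44 and 1.11 times, and the groups overlapped because AAV-GFP replicate 3 lay above AAV-RBM20 replicate 2. The log2 fold change was 0.43 ± 0.22 (edgeR adjusted p = 0.654) with all libraries. Blocked by replicate number it was 0.46 ± 0.12 (edgeR adjusted p = 0.140), and Eda2r was then the 1 member of 10 with an unadjusted p under 0.05. That fit called 18.8% of all genes at the same threshold, 8.92% of all genes as higher, and 0.145% at an adjusted p under 0.05. With both libraries numbered 3 left out it was 0.63 ± 0.12 and passed (edgeR adjusted p = 0.0221), again 1 member of 10, where 4.0% of all genes passed and 1.95% passed as higher. DESeq2, which called 0.435% of all genes, or 2.98% with the block, called 0 members, and gave Eda2r an adjusted p of 0.656, or 0.0670 with the block. limma-voom called 0 members and 0 genes in all. Eda2r therefore rose by the test only when the libraries numbered 3 were set aside.

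**Figure D2:**
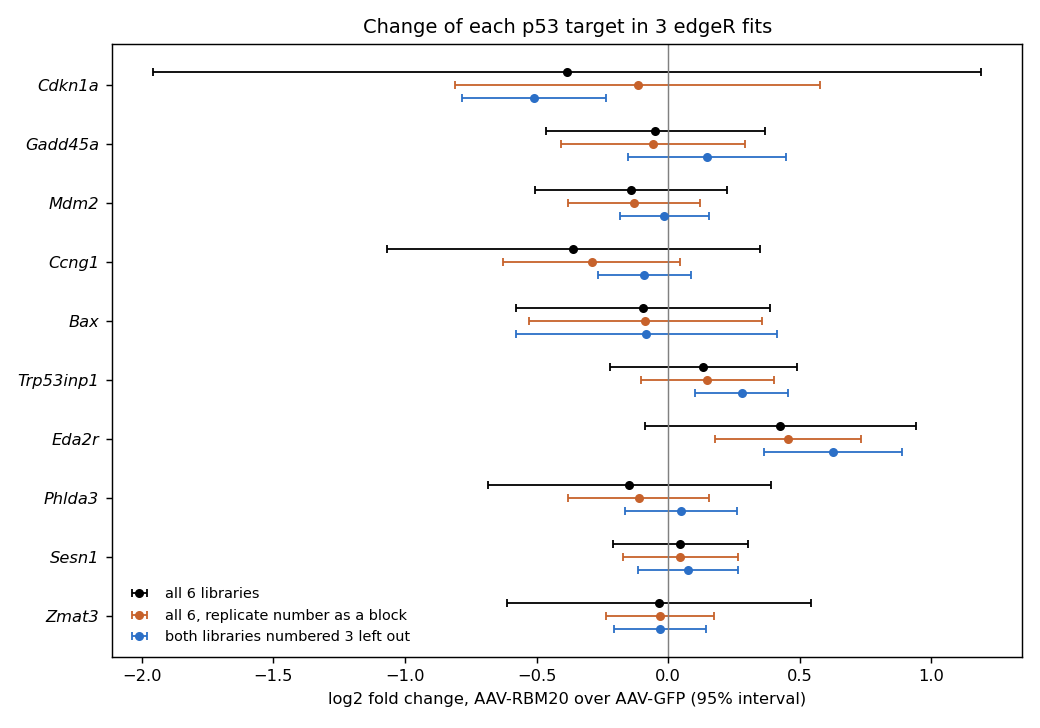
The log2 fold change of AAV-RBM20 over AAV-GFP (x axis) with its 95% interval for each of the 10 p53 targets, from edgeR with all 6 libraries (black), with the replicate number as a block (orange) and with both libraries numbered 3 left out (blue). The interval of Eda2r lies above 0 in the latter 2 fits, those of Cdkn1a (below 0) and Trp53inp1 (above 0) exclude 0 in the last fit before adjustment, and every interval of all 6 libraries without the block spans 0.

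Trp53inp1 (ENSMUSG00000028211, chr4:11156431-11174379), which encodes a stress protein with roles in apoptosis and autophagy, showed a smaller difference with the same sign. It was at 22.0, 22.6 and 30.6 CPM in AAV-GFP and 27.6, 26.3 and 28.7 CPM in AAV-RBM20, so that AAV-GFP replicate 3 was the highest library and the other 2 AAV-GFP libraries the lowest. This gave a log2 fold change of 0.13 ± 0.15 (edgeR adjusted p = 0.805), and 0.28 ± 0.08 (edgeR adjusted p = 0.0826) without the libraries numbered 3.

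Phlda3 (ENSMUSG00000041801, chr1:135766119-135769136), whose product restrains the kinase Akt, was at 123, 110.5 and 197 CPM in AAV-GFP and 131, 109 and 148 CPM in AAV-RBM20. The order of the libraries was that of Ccng1 at its top, with AAV-GFP replicate 3 and then AAV-RBM20 replicate 3 the highest. Its log2 fold change was -0.15 ± 0.23 (edgeR adjusted p = 0.864), and 0.05 ± 0.09 without the libraries numbered 3. Bax (ENSMUSG00000003873, chr7:45461697-45466898), which opens the outer mitochondrial membrane in apoptosis, was the least abundant member, at 2.34, 3.19 and 2.70 CPM in AAV-GFP and 2.42, 2.79 and 2.49 CPM in AAV-RBM20, from 95 to 142 counts a library. All its AAV-RBM20 values lay within the range of AAV-GFP (log2 fold change -0.10 ± 0.21, edgeR adjusted p = 0.904). Bax shares 192 exon bases with Gm45808 on the same strand, so reads there could be counted for neither or for either gene.

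Sesn1 (ENSMUSG00000038332, chr10:41809935-41908424), which encodes a sestrin that limits oxidative stress and TORC1 signalling, was the steadiest member. It was at 18.3, 19.5 and 18.6 CPM in AAV-GFP and 19.9, 19.7 and 18.7 CPM in AAV-RBM20, and its highest library was 1.09 times its lowest, the libraries numbered 3 included. It differed by a log2 fold change of 0.05 ± 0.11 (edgeR adjusted p = 0.913), with a 95% interval from -0.21 to 0.30. Zmat3 (ENSMUSG00000027663, chr3:32334792-32366014), a zinc finger RNA-binding protein, was at 30.0, 28.4 and 17.9 CPM in AAV-GFP and 29.5, 27.4 and 17.7 CPM in AAV-RBM20. Each AAV-RBM20 library lay within a few percent of the AAV-GFP library of the same number, at ratios of 0.982, 0.963 and 0.990, while the library numbered 3 was at 0.613 and 0.623 times the mean of the other 2. Its log2 fold change was -0.03 ± 0.25 (edgeR adjusted p = 0.976), or -0.03 ± 0.09 with the block.

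The largest differences among the members' libraries therefore lay between replicate 3 and the other replicates rather than between the vectors. On the scale of log2(CPM + 0.5), replicate 3 less the mean of replicates 1 and 2 was -2.74 in AAV-GFP and -1.49 in AAV-RBM20 for Cdkn1a, and -0.69 and -0.67 for Zmat3. In the other direction it was 1.04 and 0.47 for Ccng1, 0.75 and 0.30 for Phlda3, and 0.70 and 0.25 for Eda2r. It was also positive for Trp53inp1 (0.45 and 0.09) and Mdm2 (0.42 and 0.11). The median of the absolute values over the members was 0.57 in AAV-GFP and 0.27 in AAV-RBM20, beside 0.35 and 0.22 over all genes tested. Cdkn1a was 1 of 62 genes, 0.36% of those tested, that were below -1 in both groups, a property noticed after its values were seen. The summed endothelial markers (5 genes, among them Pecam1 and Cdh5) were also lower in the libraries numbered 3. They were at 327, 374 and 157 CPM in AAV-GFP and 351, 327 and 248 CPM in AAV-RBM20. Not every one of them followed, as Vwf was at -0.77 in AAV-GFP but 0.23 in AAV-RBM20. The summed macrophage and fibroblast markers, given below, were highest in replicate 3 of each group. The part of cell composition, of RNA quality or of handling in the level of Cdkn1a was not tested. In bulk muscle, fewer cells of a type and less RNA per cell cannot be told apart.

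**Figure D3:**
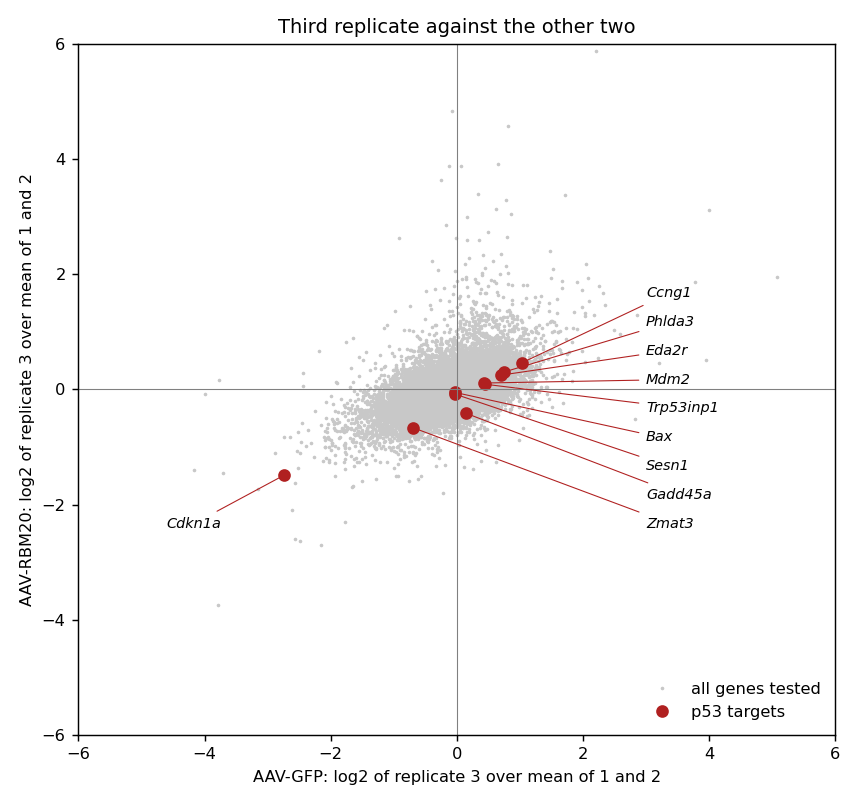
Replicate 3 against the mean of replicates 1 and 2, as a difference of log2(CPM + 0.5), in AAV-GFP (x axis) and in AAV-RBM20 (y axis), with the 17222 genes tested in grey and the 10 p53 targets in red. Cdkn1a lies far to the lower left at -2.74 and -1.49, and Zmat3 and, by little, Bax and Sesn1 lie below 0 on both axes. Ccng1, Phlda3, Eda2r, Mdm2 and Trp53inp1 lie above 0 on both.

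The wider p53 pathway gave no call with all 6 libraries in edgeR either. Of 76 further genes (regulators of p53 and targets in apoptosis, DNA repair, metabolism and other functions), 68 could be tested, with a median log2 fold change of 0.03. At an edgeR adjusted p under 0.05, 0 passed, 4 were higher and 1 lower at an unadjusted p under 0.05, against 7.9% of all genes in either direction, and the ranges of 10 did not overlap between the groups, against 16.8% of all genes. DESeq2 called 1 of them (Zfp365), against 0.435% of all genes, and DESeq2 with the block 1 (Tigar), against 2.98%. With both libraries numbered 3 left out, edgeR called 4 of them, against 4.0% of all genes. Gpx1 was higher and Hipk2, Aen and Tigar were lower, of which Gpx1 and Aen are named here after their values were seen.

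Trp53, the gene for p53, was at 16.8, 17.1 and 12.8 CPM in AAV-GFP and 13.3, 15.2 and 9.78 CPM in AAV-RBM20, lower in 3 of 3 pairs with overlapping ranges (log2 fold change -0.29 ± 0.20, edgeR adjusted p = 0.690). Its activating kinase Hipk2 differed by -0.25 ± 0.18 (edgeR adjusted p = 0.699). With the block Trp53 was at -0.30 ± 0.10 (edgeR adjusted p = 0.201), and without the libraries numbered 3 at -0.25 ± 0.10 (edgeR adjusted p = 0.214). The regulators as a list had 6 positive and 8 negative values among 14 tested. With all 6 libraries and no block, none had an unadjusted edgeR p under 0.05, against 7.9% of all genes. With the block 2 did, both lower, against 18.8% of all genes.

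Of the 16 apoptosis genes tested, 5 did not overlap between the groups, 3 higher and 2 lower in AAV-RBM20, against 16.8% of all genes. At an unadjusted p under 0.05, 2 were higher and 1 lower, against 7.9% of all genes. Apaf1, the scaffold of the apoptosome, was at 5.14, 6.18 and 5.32 CPM in AAV-GFP and 7.64, 7.79 and 7.99 CPM in AAV-RBM20, with no overlap (log2 fold change 0.49 ± 0.14, edgeR adjusted p = 0.618).

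In DNA repair, the translesion polymerases Polk (-0.39 ± 0.19, edgeR adjusted p = 0.641) and Polh (-0.24 ± 0.14, edgeR adjusted p = 0.660) had the smallest p-values of 10 genes tested, and neither passed. Without the libraries numbered 3, Polk was at -0.22 ± 0.16 and Polh at -0.04 ± 0.09. In metabolism, Tigar, which lowers glycolytic flux and shares 122 exon bases with an opposite-strand gene, was at 101, 99.0 and 165 CPM in AAV-GFP and 79.5, 83.7 and 101 CPM in AAV-RBM20, lower in 3 of 3 pairs (-0.47 ± 0.22, edgeR adjusted p = 0.641). The library numbered 3 was the highest of each group, as it was for Ccng1. Sesn3, a relative of Sesn1, had a log2 fold change of 0.29 ± 0.16 and ranges that did not overlap (edgeR adjusted p = 0.657).

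Among other targets, Zfp365 had the smallest p of any listed p53 gene, at 0.123, 0.288 and 0.228 CPM in AAV-GFP and 0.770, 0.721 and 0.947 CPM in AAV-RBM20 (log2 fold change 1.92 ± 0.41, edgeR adjusted p = 0.571). It rests on 5 to 12 counts in an AAV-GFP library and 29 to 46 in an AAV-RBM20 library. Pltp, the phospholipid transfer protein, differed by 0.52 ± 0.20 (edgeR adjusted p = 0.618), and its exons overlap those of Ctsa on the opposite strand.

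Growth arrest genes beyond the members gave no call with all 6 libraries. Of 21 listed, 20 were tested and 0 passed an edgeR adjusted p of 0.05, with 2 higher at an unadjusted p under 0.05, against 7.9% of all genes in either direction. Without the libraries numbered 3 edgeR called 1 of them, against 4.0% of all genes, namely Gas7 as higher (log2 fold change 0.69, edgeR adjusted p = 0.0376), a gene named after its values were seen. The 2 at an unadjusted p under 0.05 were Rb1, the retinoblastoma protein (0.30 ± 0.12, from 25.7, 26.5 and 26.6 CPM to 30.6, 30.9 and 36.0 CPM, with exons that overlap opposite-strand genes), and Btg1, an antiproliferative factor (0.40 ± 0.16). Rbl2, a relative of Rb1, was at -0.18 ± 0.12 and Gadd45g, a relative of Gadd45a, at -0.40 ± 0.21. Without the libraries numbered 3, Gadd45g was at -0.23 ± 0.19. The genes that drive cell division and that p53 is known to repress through p21 were in part scarce, and 8 of 22 were too low to test. Of the 14 tested, 3 were higher (Top2a, Mki67 and Rrm2) and 1 lower (Aurka) at an unadjusted p under 0.05, against 7.9% of all genes, with a median log2 fold change of 0.42, and 0 passed in edgeR after adjustment. DESeq2 with the block called Mki67 and Aurka, against 2.98% of all genes. Top2a, the topoisomerase of dividing cells, was at 0.344, 0.455 and 0.589 CPM in AAV-GFP and 1.12, 0.796 and 2.27 CPM in AAV-RBM20 (1.58 ± 0.46), while the mitotic kinase Aurka was at 5.56, 7.50 and 10.1 against 3.52, 4.88 and 4.02 CPM (-0.90 ± 0.24).

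**Figure D4:**
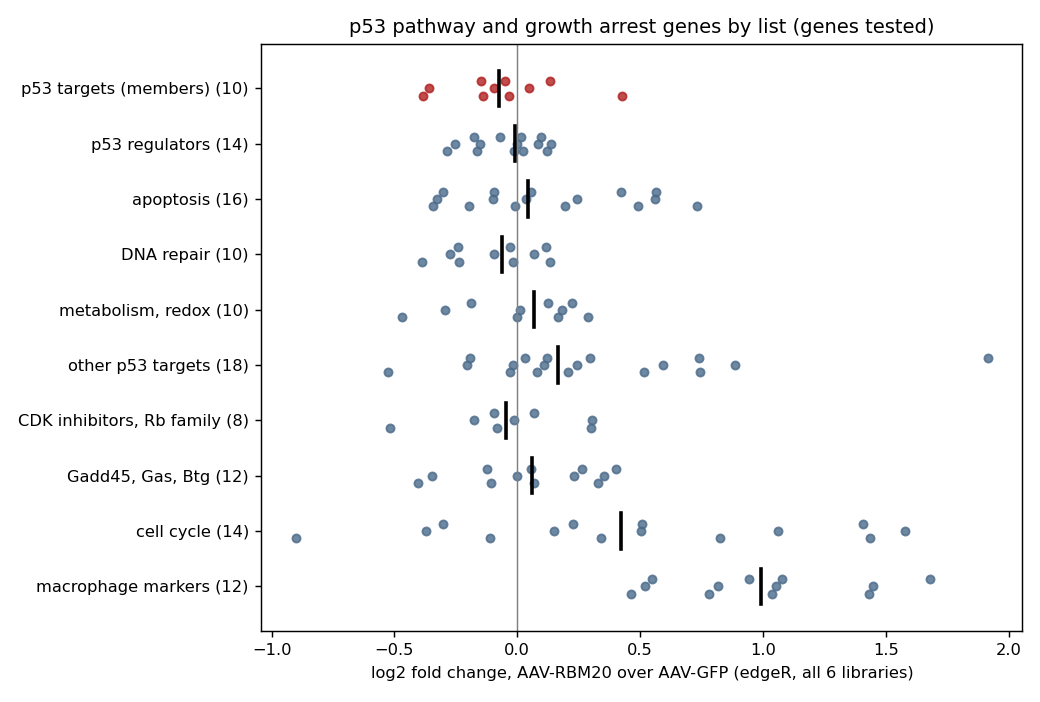
The log2 fold change of AAV-RBM20 over AAV-GFP (x axis) of every gene tested in each list (rows, with the number of genes in brackets), from edgeR with all 6 libraries, with the list's median as a black bar. The p53 targets (red) centre on -0.07, the cell cycle genes on 0.42, and the 12 macrophage markers are all above 0.

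Markers of the other cell types in muscle are given beside these results, mostly as summed levels, and none of them passed edgeR's adjusted p with all 6 libraries and no block. The 12 macrophage markers, among them Ptprc, Lyz2 and Cd68, summed to 37.3, 35.6 and 117 CPM in AAV-GFP and 89.0, 78.4 and 191 CPM in AAV-RBM20, with 12 of 12 positive in log2 fold change, and the 2 groups overlapped. The number of them past an adjusted p of 0.05 was 0 in edgeR, 2 in edgeR with the block (Ptprc and Ccr2, against 0.145% of all genes), 6 in DESeq2 with the block (against 2.98%) and 9 in edgeR without the libraries numbered 3 (against 4.0%). The 8 fibroblast markers summed to 687, 642 and 1319.9 CPM in AAV-GFP and to 1268, 1053 and 1441 CPM in AAV-RBM20, which overlap. Their log2 fold changes were positive in 8 of 8. At an adjusted p under 0.05, edgeR called 0 of them with or without the block. DESeq2 with the block called 2 as higher (against 2.98% of all genes). Without the libraries numbered 3, edgeR called 5 as higher (against 4.0%). The 4 adipocyte markers tested all had negative log2 fold changes (median -0.61) with none called. Satellite cell markers (5 genes) summed to 33.0, 30.9 and 31.7 CPM in AAV-GFP and 30.5, 26.7 and 24.3 CPM in AAV-RBM20, with 4 positive in log2 fold change. DESeq2 with the block and edgeR without the libraries numbered 3 called Cdh15 of these as lower (against 2.98% and 4.0% of all genes). Cdh15 is named after its values were seen. None of the 6 Schwann cell markers was called. Lymphocyte markers summed to 0.467 to 1.39 CPM in AAV-GFP and 0.846 to 5.37 CPM in AAV-RBM20, with 3 of 8 at 0 in at least 1 library and 7 of 8 too low to test. Eda2r had the same order of libraries within each group, and the same sign in each pair, as the summed macrophage markers. The summed fibroblast markers shared both traits, and Phlda3 shared that order but not that sign. These likenesses were seen after the values were known. The part of non-muscle cells in the level of Eda2r, or in those of Top2a and Mki67, was not tested. The muscle itself was present in every library, as the 9 myofibre markers, Acta1 and Ckm among them, summed to between 80734 and 132554 CPM, lowest in AAV-RBM20 replicate 3. Of these 9, 8 had a negative log2 fold change (median -0.34), and 0 passed edgeR's adjusted p with all 6 libraries. Without the libraries numbered 3, edgeR called 1 as lower (Tnnt3, against 4.0% of all genes). DESeq2 with the block called 2 as lower (Tnnt3 and Myh4, against 2.98%).

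Genes that muscle is known to induce on denervation or regeneration are described as a list of 13, since Gadd45a is among the genes that respond to denervation. The list as a whole was not tested, nor was a part of denervation in these levels. Summed over the list, the level was 203, 221 and 186 CPM in AAV-GFP and 228, 223 and 185 CPM in AAV-RBM20, which overlap. Of the 12 tested, 8 had a positive and 4 a negative log2 fold change. The ranges of 6 did not overlap between the groups, 5 higher and 1 lower in AAV-RBM20, against 16.8% of all genes. At an unadjusted p under 0.05, edgeR had 5 higher and 1 lower, against 7.9% of all genes. Runx1, a transcription factor of denervated muscle, was at 4.77, 6.01 and 5.95 CPM in AAV-GFP and 13.8, 12.4 and 13.5 CPM in AAV-RBM20, and its log2 fold change of 1.25 ± 0.15 had an edgeR adjusted p of 0.257, or 0.0271 with the block. DESeq2 called Runx1 and Myh8, an immature myosin, against 0.435% of all genes. With the block it also called Ncam1 and Myh3, against 2.98% of all genes. All of these were higher, and neither fit called a gene of the list as lower. Gadd45a, at 10.1 ± 1.29 and 9.73 ± 1.80 CPM (SD, n = 3 each), showed no such separation. These genes are named after their values were seen.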

How the data were processed

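TA muscle RNA-seq of 6 libraries was analysed, 3 AAV-GFP and 3 AAV-RBM20, grouped by the labels. Per the labels, libraries came from a stranded kit with ribosomal RNA removal, and the notes name HISAT2, HTSeq, DESeq2 and mm10, with no versions. The values used are raw counts per gene deposited by the authors as one table with Ensembl identifiers. A second table of normalised values was not used. Of 55401 identifiers, 55141 were matched to GENCODE mouse symbols. Counts were tested with edgeR 4.0.16 in R 4.3.3 (filterByExpr, TMM, robust glmQLFit, glmQLFTest, no covariate), with Benjamini-Hochberg adjustment over all genes tested and a threshold of 0.05. The standard error is the log2 fold change over the square root of F. DESeq2 1.42.0 and limma 3.58.1 were alternatives, as were other normalisations and filters, single libraries left out, and both libraries numbered 3 left out. The edgeR, DESeq2 and limma-voom fits were run on simulated counts with a single dispersion and no shift of the libraries numbered 3. That setting lacks the spread of the real libraries, so it does not show how the fits perform on them. Total counts per library limit the precision of low genes such as Bax and Zfp365.

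The titles number both groups 1 to 3, though the descriptions number the AAV-RBM20 samples 4 to 6. Deviations from the group means correlated at r = 0.52, 0.29 and 0.55 between libraries numbered 1, 2 and 3, each over 0.1, so the numbers were taken as pairs and used as a block. Libraries of unlike number correlated at 0.30 (AAV-GFP 2 with AAV-RBM20 1) and 0.16 (AAV-GFP 1 with AAV-RBM20 2), so numbers 1 and 2 are not clearly told apart, and at -0.28 to -0.51 where only one was numbered 3. The labels do not say what libraries of the same number share. Lane labels in the study's source data for its RBM20 blots list some mouse numbers with both GFP and Rbm20, marked R and L. No library is tied to those mice, so whether libraries of the same number share an animal is not known. The block and the counts of pairs thus rest on the titles and on the same values that were tested. No 2 libraries of a group agreed within counting noise.

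All 10 members are named whatever they show. From each further list the genes past adjusted p 0.05 with or without the block were to be named, otherwise the 2 with the smallest p. A gene that this rule named is not reported here. The members and lists were chosen with earlier results of these data known. Promoter windows are from RefSeq.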

Additional observations from a re-analysis of the deposited data

How the results depend on the processing

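Of 160 member values under 16 alternatives, 145 kept their direction and their side of the threshold, 14 turned direction and 1 (Eda2r, 0.63 with both libraries numbered 3 left out) passed the threshold. The number of genes past an edgeR adjusted p of 0.05 was 0, against 8 with no filter on low counts, 25 with the replicate block, 75 with DESeq2, 513 with DESeq2 and the replicate block, and 690 without both libraries numbered 3. The count of members passing was 0, and 1 without both libraries numbered 3. The wider p53 list had 0, against 1 with DESeq2, 1 with DESeq2 and the replicate block, and 4 without both libraries numbered 3. The block changed no call on a member. With 1 library left out, the log2 fold change ranged from -0.87 to 0.10 for Cdkn1a, from -0.18 to 0.0925 for Gadd45a, from -0.23 to 0.0148 for Mdm2, from -0.55 to 0.0728 for Ccng1, from -0.20 to 0.0217 for Bax, from -0.31 to 0.15 for Phlda3 and from -0.24 to 0.17 for Zmat3, with no gene past the adjusted threshold. Without both libraries numbered 3, Gadd45a was at 0.15 and Phlda3 at 0.0487, and with upper quartile factors Zmat3 was at 0.0045. The cause of these turns was not tested, and all lay within the members' intervals. With 3 libraries a group and the third apart, changes as small as most of these could not be resolved.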
